A study of Homo sapiens with 6 samples.

Results

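The 53 protein-coding genes described here encode enzymes, transporters and regulators of central carbon metabolism, and were followed in cells with a knockdown of FUBP1, the far upstream element-binding protein. They were chosen by a list of symbols from the 58735 genes of the deposited table, and all 53 had enough counts to be tested. They fall into glycolysis with glucose uptake and lactate dehydrogenase (21 genes), the entry of pyruvate into mitochondrial metabolism (8 genes), the tricarboxylic acid (TCA) cycle with the malic enzymes and mitochondrial phosphoenolpyruvate carboxykinase (18 genes), and the pentose phosphate pathway (6 genes). RNA was sequenced from 3 samples transfected with a negative control siRNA (siMock) and 3 samples transfected with siRNA against FUBP1 (siFUBP1), taken 48 h after transfection from cells labelled MG63, an established human osteosarcoma line. A short interfering RNA (siRNA) directs the cleavage of mRNA that matches it. All samples are from 1 line, and which of the FUBP1 siRNAs was sequenced is not given in the sources used here, so an effect of FUBP1 loss and another effect of the siRNA sequence cannot be told apart. The question for these genes was how each pathway stood after the knockdown, with pyruvate carboxylase (PC), which feeds the cycle, as a gene the study had followed itself.

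Glycolysis splits glucose into pyruvate in the cytosol and yields ATP and NADH, and lactate dehydrogenase turns pyruvate into lactate and restores the oxidised cofactor. The pyruvate dehydrogenase complex, which its kinases switch off, turns pyruvate into acetyl-CoA for the TCA cycle, while pyruvate carboxylase makes oxaloacetate to refill it. The pentose phosphate pathway draws on a glycolytic intermediate. Its oxidative branch makes NADPH and its non-oxidative branch interconverts sugars and makes the ribose of nucleotides. Many tumour cells run glycolysis at a high rate even where oxygen is present.

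FUBP1, the targeted gene (ENSG00000162613, chromosome 1, 77944055 to 77979110 on GRCh38), was at 237, 255 and 274 CPM in the siMock samples and at 44.3, 43.4 and 53.04 CPM in the siFUBP1 samples. CPM here are counts relative to a library size scaled by TMM, which allows for differences in RNA composition. The groups were far apart, at -2.44 ± 0.0895 (SE) on the log2 scale (adjusted p = 1.9e-17, the quasi-likelihood test of edgeR adjusted by Benjamini-Hochberg over all tested genes), and 18.4% of the siMock level remained. Total counts lay between 16309900 and 17484313 per sample, and the 53 genes took 2.01% to 2.23% of them, so that at this depth a count of 0 allows a level of up to 0.184 CPM in the shallowest sample. Several markers of the labelled cell type were absent or nearly so. COL1A2, a chain of type I collagen, had 0 reads in all 6 samples, SPARC (osteonectin) had 0 to 5 reads per sample and ALPL (alkaline phosphatase) 0 to 1. The other chain of that collagen, COL1A1, had 1692 to 2000 reads in siMock and 769 to 792 in siFUBP1, a fall of 1.31 on the log2 scale (adjusted p = 1.83e-13 by edgeR). VIM (vimentin) went the other way, with 2312 to 2589 reads in siMock and 3146 to 3731 in siFUBP1, a rise of 0.38 (adjusted p = 2.1e-04 by edgeR). RUNX2, the osteoblast transcription factor, had 6 to 8 reads in siMock and 39 to 97 in siFUBP1. Markers of other cell types were low: EPCAM (epithelium) had 59 to 83 reads, PTPRC (leukocytes) 0 to 2 and PECAM1 (endothelium) 0 to 11. Summed over its 6 genes the mesenchymal list was at 257 to 273 CPM in siMock and 234 to 261 CPM in siFUBP1. Nearly all of that sum was COL1A1 and VIM, whose fall and rise partly offset each other. The 3 other markers were at 4.36 to 4.96 CPM in siMock and 4.15 to 4.97 CPM in siFUBP1. With COL1A2 absent and SPARC and ALPL nearly so, these markers do not settle whether the line was MG63 as labelled. Its identity was not tested, nor was the part of these markers in the results. In the siFUBP1 group, sample 2 held the lowest value for 15 of the 21 glycolysis genes (71.4%) and for 36 of the 53 genes (67.9%), against 34.3% of all tested genes.

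After FUBP1 knockdown the enzymes of central carbon metabolism did not move as a block. Single enzymes changed strongly and in opposite directions, and most of the abundant glycolytic enzymes changed little. The largest rises were those of PCK2 (mitochondrial phosphoenolpyruvate carboxykinase), HK2 (hexokinase) and ME1 (cytosolic malic enzyme), at 6.14, 3.15 and 2.07 times the siMock level. The largest falls were those of ACO1 (cytosolic aconitase), PGD (phosphogluconate dehydrogenase), DLST (a subunit of the alpha-ketoglutarate dehydrogenase complex) and PC, to 29.8%, 43.3%, 45.6% and 46.1% of siMock. At an adjusted p below 0.05 by edgeR, 16 of the 53 genes (30.2%) were higher and 18 (34.0%) lower, and the other 19 had log2 fold changes between -0.16 and 0.12. Of all 16116 genes tested, 30.1% were higher and 30.1% lower, so the shares of these pathways lie near those of the whole transcriptome. With a log2 fold change beyond 1 as well, 3 were higher and 4 lower, where 8.16% of all genes were higher and 9.13% lower. Beyond 1.5 times were 11 of the 53 (20.8%), a smaller share than the 34.9% of all genes. In 34 of the 53 genes every siFUBP1 sample lay on 1 side of the siMock samples, against 63.9% of all genes. The median log2 fold change was -0.03 over the 53 genes and 0.00197 over all genes, and the median absolute log2 fold change was 0.31 and 0.44. Scaled by library totals only, 20 were higher and 14 lower, and over all genes 5698 and 4121 respectively. In bulk RNA, fewer cells of a type and less RNA per cell cannot be told apart.

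**Figure D1:**
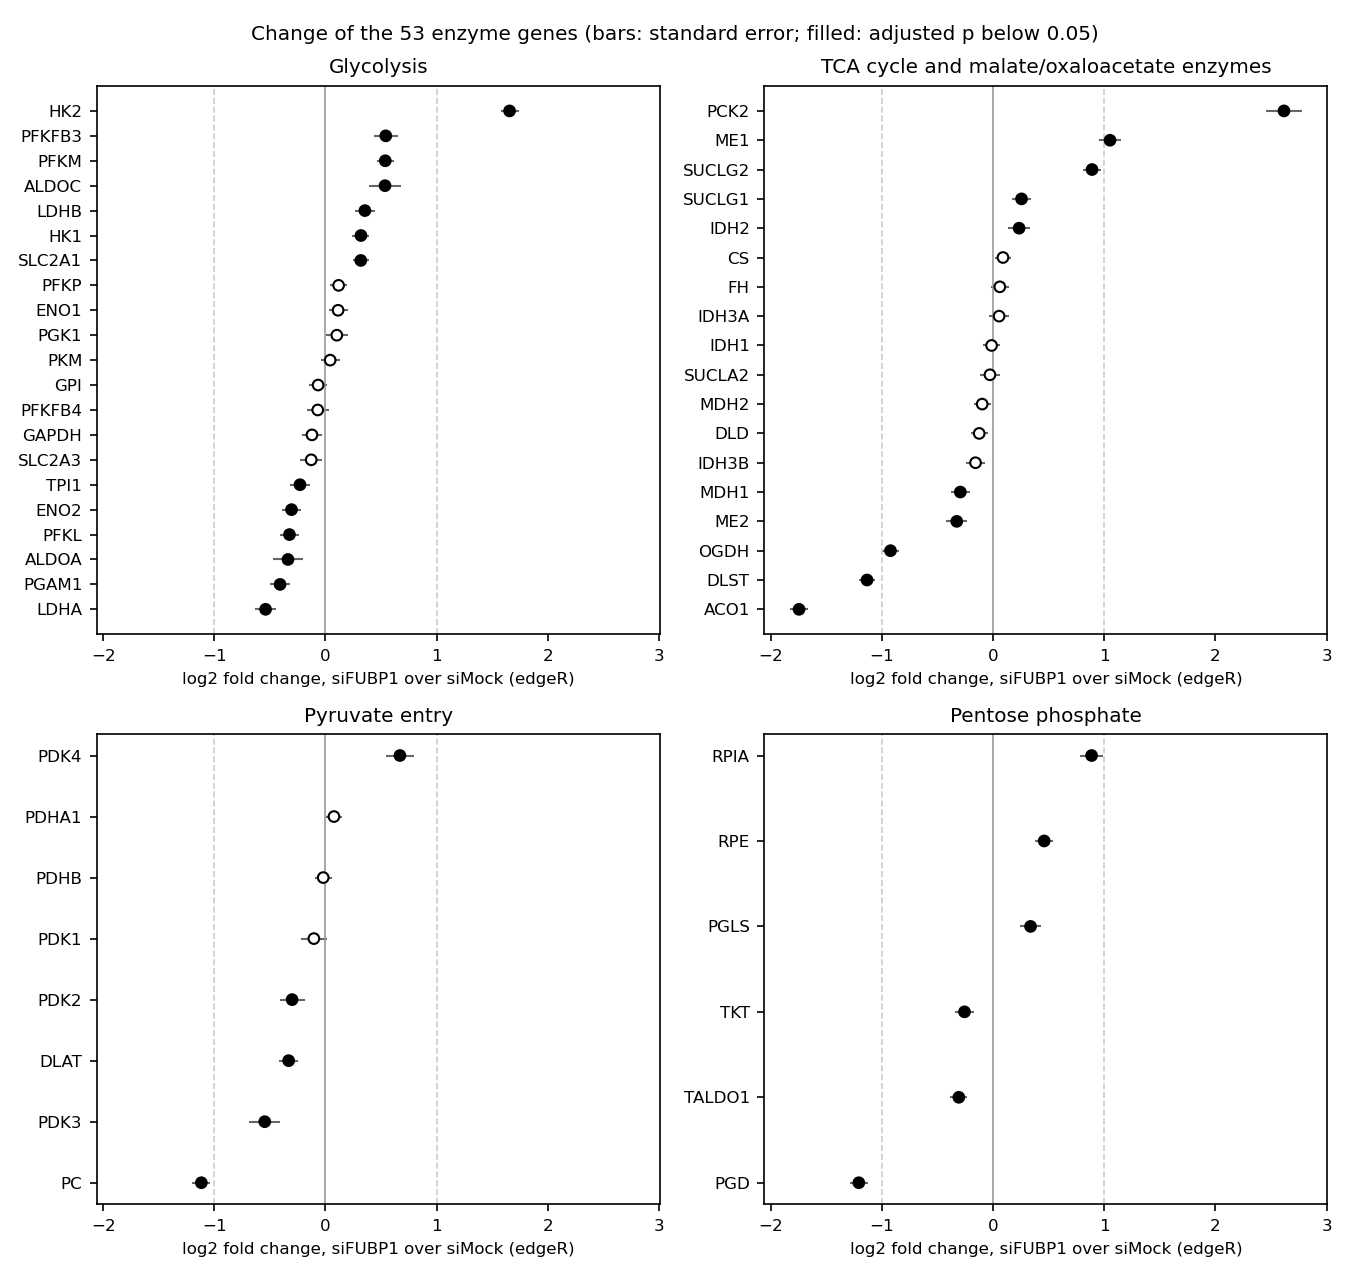
Log2 fold change, siFUBP1 over siMock, of each of the 53 genes on the horizontal axis, in 1 panel per pathway, with bars for the standard error from edgeR (3 samples against 3), filled points for an adjusted p below 0.05 and dashed lines at -1 and 1. PCK2 at 2.62 and HK2 at 1.66 lie far to the right of their pathways, and ACO1 at -1.74 far to the left, while the 19 open points lie between -0.16 and 0.12.

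In glycolysis 7 of 21 genes were higher, 6 lower and 8 did not pass, with a median log2 fold change of 0.04. Only HK2 passed 1 on the log2 scale. Hexokinase phosphorylates glucose after uptake, and HK2 (ENSG00000159399, chromosome 2, 74833981 to 74893359) is the isozyme that many tumours induce. HK2 had 53.8, 48.96 and 49.96 CPM in siMock and 151, 167 and 163 CPM in siFUBP1. All 3 siFUBP1 samples were well above all siMock samples, and the log2 fold change was 1.66 ± 0.0803 (SE, adjusted p = 2.99e-15 by edgeR). HK1, the widely expressed isozyme, had 174, 188 and 164 CPM in siMock and 223, 221 and 213 CPM in siFUBP1, a smaller rise of 0.32 on the log2 scale (adjusted p = 7.81e-04 by edgeR). Neither was the most abundant hexokinase per length. That was HKDC1, which is not among the 53 genes and was named after its values were seen, at a mean FPKM of 53.7 in siMock and 104.8 in siFUBP1, against 27.6 and 34.6 for HK1 and 8.30 and 26.3 for HK2. HKDC1 had 223, 236 and 235 CPM in siMock and 449.9, 506 and 391 CPM in siFUBP1, a log2 fold change of 0.96 (adjusted p = 4.89e-10 by edgeR). The glucose transporter SLC2A1 (GLUT1) had 194, 179 and 186 CPM in siMock and 233, 226 and 237 CPM in siFUBP1, a log2 fold change of 0.32 (adjusted p = 6.21e-04 by edgeR). SLC2A3 (GLUT3) had 42.4, 38.1 and 50.7 CPM in siMock and 38.5, 38.2 and 43.2 CPM in siFUBP1, and with overlapping groups and a log2 fold change of -0.13 (adjusted p = 0.278 by edgeR) it did not pass.

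The 3 subunit genes of phosphofructokinase, which commits sugar to glycolysis, went different ways. PFKM, the muscle-type subunit, had 198, 210.0 and 201 CPM in siMock and 299, 298 and 288 CPM in siFUBP1, a log2 fold change of 0.54 (adjusted p = 6.66e-07 by edgeR). PFKL, the liver-type subunit, had 170.4, 139.9 and 138 CPM in siMock and 121, 115 and 122 CPM in siFUBP1, a log2 fold change of -0.32 (adjusted p = 0.00157 by edgeR). The siMock samples of PFKL were spread more widely than the siFUBP1 samples, and once GC content and exon length were corrected for its log2 fold change was 0.08 (adjusted p = 0.286 by edgeR), so its direction depends on that correction. PFKP, the platelet-type subunit and the most abundant of the 3 per length, had 357, 340.3 and 323 CPM in siMock and 389, 359.6 and 359 CPM in siFUBP1. It was at 0.12 (adjusted p = 0.191 by edgeR), and with the same correction it was at 0.24 and passed. PFKFB3, whose product makes the activator of phosphofructokinase, had 21.5, 26.8 and 23.6 CPM in siMock and 30.2, 37.1 and 37.5 CPM in siFUBP1, a log2 fold change of 0.54 (adjusted p = 8.82e-05 by edgeR). Its relative PFKFB4 had 33.03, 33.01 and 38.04 CPM in siMock and 35.7, 29.7 and 33.7 CPM in siFUBP1 and was at -0.07 (adjusted p = 0.557 by edgeR).

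The lower, energy-yielding part of glycolysis held the most abundant genes. GAPDH, with a mean deposited FPKM of 1046 ± 63.6 (SD, n = 3) in siMock, was the highest of the 53 per length. It had 3227, 2929.7 and 3309 CPM in siMock and 3110.4, 2521 and 3069.7 CPM in siFUBP1, so the groups overlap, and its log2 fold change of -0.12 did not pass (adjusted p = 0.273 by edgeR). ENO1, the main enolase here, had 3070.2, 2899 and 3028 CPM in siMock and 3366, 3071 and 3295 CPM in siFUBP1. ENO1 (0.11), PGK1 (0.10), PKM (0.04) and GPI (-0.07) did not pass either. The neuronal enolase gene ENO2 had 134, 121 and 122 CPM in siMock and 105, 90.2 and 110.4 CPM in siFUBP1. PGAM1, the phosphoglycerate mutase, fell by 0.41 on the log2 scale (adjusted p = 5.03e-04 by edgeR), from 549 ± 42.3 to 413 ± 59.7 CPM (SD, n = 3). TPI1 at -0.23, ENO2 at -0.31 and ALDOA at -0.34 were lower with adjusted p of 0.0278, 0.00255 and 0.0457 by edgeR, and the calls of TPI1 and ALDOA were lost under several alternatives, among them the 1 without siFUBP1 sample 2 (adjusted p = 0.241 and 0.178 by edgeR). LDHA (ENSG00000134333, chromosome 11, 18394388 to 18408425), the lactate dehydrogenase gene with the most counts here, had 2445, 2285 and 2702 CPM in siMock and 1769, 1458 and 1889 CPM in siFUBP1. All siFUBP1 samples were below all siMock samples, at a log2 fold change of -0.54 ± 0.0965 (SE, adjusted p = 2.87e-05 by edgeR), and without siFUBP1 sample 2 it was -0.43. LDHB, the other subunit, had 29.2, 27.2 and 30.4 CPM in siMock and 38.8, 37.1 and 34.9 CPM in siFUBP1, a rise of 0.35 on the log2 scale (adjusted p = 0.00178 by edgeR). LDHB shares 93.5% of its coding bases with the same-strand gene AC010197.2 and ALDOA shares 93.8% with AC093512.2, so reads there could have been left uncounted and the levels of LDHB and ALDOA are uncertain. Pseudogenes named after GAPDH (62 of them) held 0.639% as many reads as GAPDH, and those of PGAM1 and TPI1 held 0.603% and 1.47%.

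**Figure D2:**
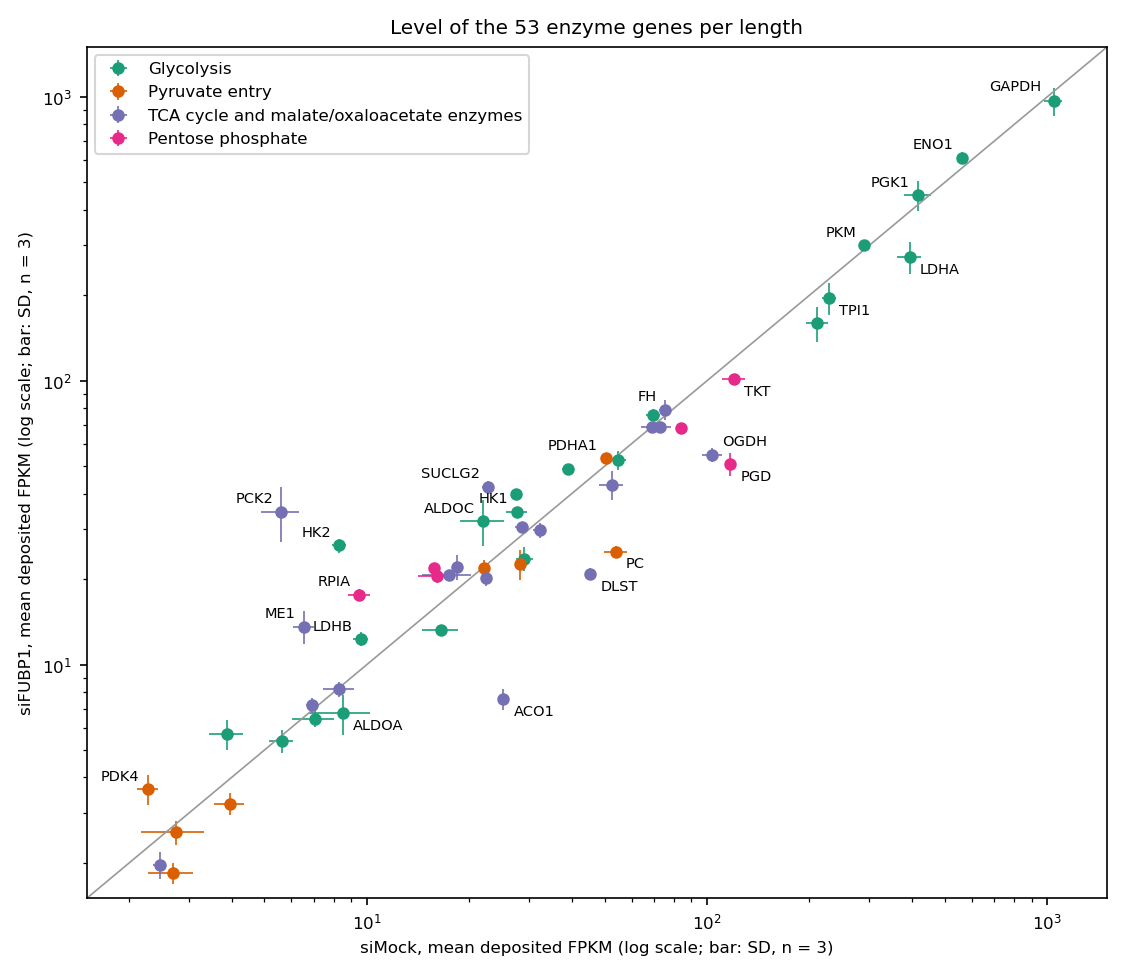
Mean deposited FPKM of each of the 53 genes in siMock (horizontal) and siFUBP1 (vertical), both on log scales, with bars for the SD of 3 samples, colours for the pathways and a line of equal levels. The abundant glycolysis genes at the upper right lie near the line, and ACO1, DLST, PC, PGD and OGDH lie below it while PCK2, HK2, ME1, SUCLG2 and RPIA lie above it.

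At the entry of pyruvate 1 gene was higher, 4 were lower and 3 did not pass, with a median log2 fold change of -0.20 over the 8 genes. PC (ENSG00000173599, chromosome 11, 66848233 to 66958376), the carboxylase that makes oxaloacetate from pyruvate, had 341, 332 and 295 CPM in siMock and 154, 139.5 and 154 CPM in siFUBP1. The lowest siMock sample was still far above the highest siFUBP1 sample, and the log2 fold change was -1.12 ± 0.0802 (SE, adjusted p = 6.06e-12 by edgeR). It was between -1.18 and -1.07 with each sample left out in turn, and -0.83 once GC content and exon length were corrected for, short of 1 but still past the test. PC shares 621 exonic bases, 10.5% of its exonic length, with LRFN4 on the opposite strand, and LRFN4 itself had a log2 fold change of -0.88 (adjusted p = 3.16e-09 by edgeR). Whether the counting used the strand is not given in the sources used here, so reads of these 2 genes in that stretch may not be told apart. In siMock PC was the most abundant gene of this group per length, at a mean FPKM of 53.8, and in siFUBP1 PDHA1 was, at 53.4.

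The genes for the catalytic core of pyruvate dehydrogenase changed little. PDHA1 and PDHB, the subunits that decarboxylate pyruvate, were at 0.08 and -0.02 on the log2 scale (adjusted p = 0.389 and 0.838 by edgeR). PDHA1 had 223, 235 and 228 CPM in siMock and 234, 243 and 247 CPM in siFUBP1, and its groups overlap. DLAT, the acetyltransferase of the complex, had 133, 142 and 139 CPM in siMock and 106, 98.5 and 125 CPM in siFUBP1, a log2 fold change of -0.33 (adjusted p = 0.00136 by edgeR).

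The 4 kinases that switch the complex off did not move together. PDK4, the kinase induced by fasting and fatty acids in many tissues, had 9.56, 10.5 and 11.1 CPM in siMock and 14.8, 16.0 and 18.7 CPM in siFUBP1, a rise of 0.67 ± 0.13 on the log2 scale (SE, adjusted p = 7.25e-05 by edgeR). PDK3 had 14.2, 11.1 and 15.1 CPM in siMock and 9.41, 8.30 and 9.85 CPM in siFUBP1, a fall of 0.55 on the log2 scale (adjusted p = 0.00161 by edgeR). For both genes the groups did not overlap. PDK2 had 23.3, 23.1 and 19.3 CPM in siMock and 19.4, 17.8 and 16.3 CPM in siFUBP1, a log2 fold change of -0.30 (adjusted p = 0.0231 by edgeR) with overlapping groups, and its call was lost under 10 of the 17 alternatives. PDK1 had 38.7, 34.3 and 51.1 CPM in siMock and 37.5, 35.1 and 42.6 CPM in siFUBP1, and at -0.10 (adjusted p = 0.474 by edgeR) it did not pass. Per length, PDK2 was the highest of the 4 kinases in siMock, at a mean FPKM of 3.95, and PDK4 in siFUBP1, at 3.63. By counts PDK1 was the highest in both groups, at a mean of 41.4 CPM in siMock and 38.4 CPM in siFUBP1. The length covers all annotated exons, 14883 bases for PDK1 and 5481 for PDK2, so this ranking depends on it. PDK2 shares 38.6% of its exonic bases with SAMD14 on the opposite strand, a gene with at most 18 reads in any sample. If the counting ignored the strand, reads there could have been left out of both genes, so this low count is no check. Opposite-strand genes also cover part of the exonic bases of IDH3A (38.9%), RPE (23.8%) and PDHA1 (21.3%).

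In the TCA cycle and its side reactions 5 of 18 genes were higher, 5 lower and 8 did not pass, with a median log2 fold change of -0.02. Corrected for GC content and exon length, 10 were lower, among them IDH1, IDH3B, DLD, SUCLA2 and MDH2, at -0.25 to -0.14. Over all tested genes 4851 of 16116 were lower without it, and 4121 to 5001 across the 17 alternatives, this correction among them. Around citrate and isocitrate, ACO1 (ENSG00000122729, chromosome 9, 32384603 to 32454769) stood out. Its product is the cytosolic aconitase, which without its iron-sulfur cluster binds mRNAs of iron metabolism. ACO1 had 191, 196 and 189.7 CPM in siMock and 59.4, 51.6 and 61.2 CPM in siFUBP1. The samples of each group lay close together, at a log2 fold change of -1.74 ± 0.0814 (SE, adjusted p = 1.47e-15 by edgeR). CS (citrate synthase) at 0.09, IDH3A at 0.05, IDH3B at -0.16 and IDH1 at -0.01 did not pass. IDH1, the cytosolic NADP-dependent isocitrate dehydrogenase, had 305, 331 and 352 CPM in siMock and 337, 325 and 316 CPM in siFUBP1. IDH2, its mitochondrial counterpart, had 58.7, 47.3 and 42.9 CPM in siMock and 59.7, 58.3 and 57.2 CPM in siFUBP1. It was at 0.24 (adjusted p = 0.0391 by edgeR) with overlapping groups, and its call was lost under 8 of the 17 alternatives.

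The alpha-ketoglutarate dehydrogenase complex, which oxidises alpha-ketoglutarate to succinyl-CoA, consists of OGDH, DLST and DLD. OGDH (ENSG00000105953, chromosome 7, 44606572 to 44709066) carries the decarboxylase and was the most abundant gene of this group per length in siMock, at a mean FPKM of 103. OGDH had 555, 574 and 505 CPM in siMock and 282, 274 and 306 CPM in siFUBP1, a log2 fold change of -0.92 ± 0.0802 (SE, adjusted p = 2.33e-10 by edgeR). DLST (ENSG00000119689, chromosome 14, 74881891 to 74903745), the succinyltransferase, had 205, 212 and 210.3 CPM in siMock and 97.9, 97.9 and 90.3 CPM in siFUBP1, a log2 fold change of -1.13 ± 0.0754 (SE, adjusted p = 1.43e-12 by edgeR). DLD, which the pyruvate dehydrogenase complex also uses, was at -0.12 and did not pass (adjusted p = 0.168 by edgeR), and with the GC and length correction it was at -0.25 (adjusted p = 7.57e-04 by edgeR). So OGDH and DLST fell to 52.8% and 45.6% of siMock, and DLD was at 91.8%. In siFUBP1 the most abundant gene of the group per length was FH (fumarate hydratase), at a mean FPKM of 79.0. FH had 162, 157 and 171 CPM in siMock and 186, 158 and 167 CPM in siFUBP1, a log2 fold change of 0.06 (adjusted p = 0.521 by edgeR).

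Succinyl-CoA ligase has a common alpha subunit, SUCLG1, and a choice of beta subunits, SUCLG2 for GTP and SUCLA2 for ATP. SUCLG2 (ENSG00000172340, chromosome 3, 67360460 to 67654614) had 67.8, 71.1 and 73.9 CPM in siMock and 132, 125 and 138 CPM in siFUBP1. It rose by 0.89 ± 0.0780 on the log2 scale (SE, adjusted p = 2.63e-10 by edgeR), without overlap. SUCLA2 had 76.2, 66.2 and 82.1 CPM in siMock and 72.4, 69.2 and 78.6 CPM in siFUBP1, and was at -0.03 (adjusted p = 0.808 by edgeR). SUCLG1 was at 0.26 (adjusted p = 0.00923 by edgeR), and with the GC and length correction at 0.02 (adjusted p = 0.831 by edgeR), and its call was also lost without siFUBP1 sample 1 (adjusted p = 0.0845 by edgeR).

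The enzymes that take carbon out of the cycle held the largest rise of the 53. PCK2 (ENSG00000100889, chromosome 14, 24094053 to 24110598), which makes phosphoenolpyruvate from oxaloacetate inside mitochondria, had 27.3, 21.7 and 22.3 CPM in siMock and 146, 177 and 114 CPM in siFUBP1. The siFUBP1 samples varied among themselves, from 1997 to 3074 reads, yet the lowest was far above all siMock samples, and the log2 fold change was 2.62 ± 0.16 (SE, adjusted p = 1.4e-07 by edgeR). It was between 2.46 and 2.77 with each sample left out. ME1 (ENSG00000065833, chromosome 6, 83210389 to 83431071), the cytosolic malic enzyme that makes pyruvate and NADPH, had 24.0, 21.8 and 20.9 CPM in siMock and 39.4, 48.1 and 51.0 CPM in siFUBP1. Its log2 fold change was 1.05 ± 0.10 (SE, adjusted p = 2.08e-09 by edgeR), and 0.90 with the GC and length correction. ME2, the mitochondrial malic enzyme, had 38.4, 41.3 and 41.5 CPM in siMock and 36.4, 29.9 and 30.4 CPM in siFUBP1, a log2 fold change of -0.33 (adjusted p = 0.00466 by edgeR). Its call was lost in limma on both log2 scales of the FPKM (adjusted p = 0.0558 and 0.0584). Of the malate dehydrogenases, MDH1 in the cytosol had 257, 247 and 289 CPM in siMock and 236, 187 and 224 CPM in siFUBP1, at -0.29 on the log2 scale (adjusted p = 0.00514 by edgeR). MDH2 in mitochondria had 291, 264 and 252 CPM in siMock and 255, 245.5 and 253 CPM in siFUBP1, at -0.10 (adjusted p = 0.287 by edgeR). The call of MDH1 was lost without siFUBP1 sample 2 (adjusted p = 0.0609 by edgeR).

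In the pentose phosphate pathway all 6 genes passed, 3 higher and 3 lower, and for all 6 the groups did not overlap, where 60.2% of all genes passed and 63.9% had groups that did not overlap. PGD (ENSG00000142657, chromosome 1, 10398592 to 10420144), which makes NADPH at the end of the oxidative branch, had 349, 356 and 347 CPM in siMock and 161, 134.5 and 161 CPM in siFUBP1. Its log2 fold change was -1.21 ± 0.0813 (SE, adjusted p = 1.8e-12 by edgeR). PGLS, the lactonase just before it, was higher by 0.34 on the log2 scale (adjusted p = 0.00256 by edgeR), from 46.4 ± 5.70 to 58.6 ± 2.75 CPM (SD, n = 3). In the non-oxidative branch the isomerase RPIA (ENSG00000153574, chromosome 2, 88691644 to 88750935), which makes ribose phosphate, had 17.5, 16.5 and 19.3 CPM in siMock and 34.6, 32.2 and 31.7 CPM in siFUBP1. RPIA rose by 0.89 ± 0.10 on the log2 scale (SE, adjusted p = 2.63e-08 by edgeR). The epimerase RPE rose by 0.46 on the log2 scale (adjusted p = 1.85e-05 by edgeR), from 56.3 ± 1.96 to 77.5 ± 2.19 CPM (SD, n = 3). Both sugar-exchanging enzymes were lower. TKT (transketolase), the most abundant of the 6 per length, had 1207, 1206.5 and 1051 CPM in siMock and 976, 949.8 and 975 CPM in siFUBP1, a log2 fold change of -0.26 (adjusted p = 0.00914 by edgeR), and with the GC and length correction it was at -0.02 (adjusted p = 0.791 by edgeR). The call of TKT was also lost with library totals only and without siMock sample 2 (adjusted p = 0.0832 and 0.0577 by edgeR). TALDO1 (transaldolase) had 266, 248 and 253 CPM in siMock and 213, 196 and 211 CPM in siFUBP1, a log2 fold change of -0.31 (adjusted p = 9.81e-04 by edgeR).

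**Figure D3:**
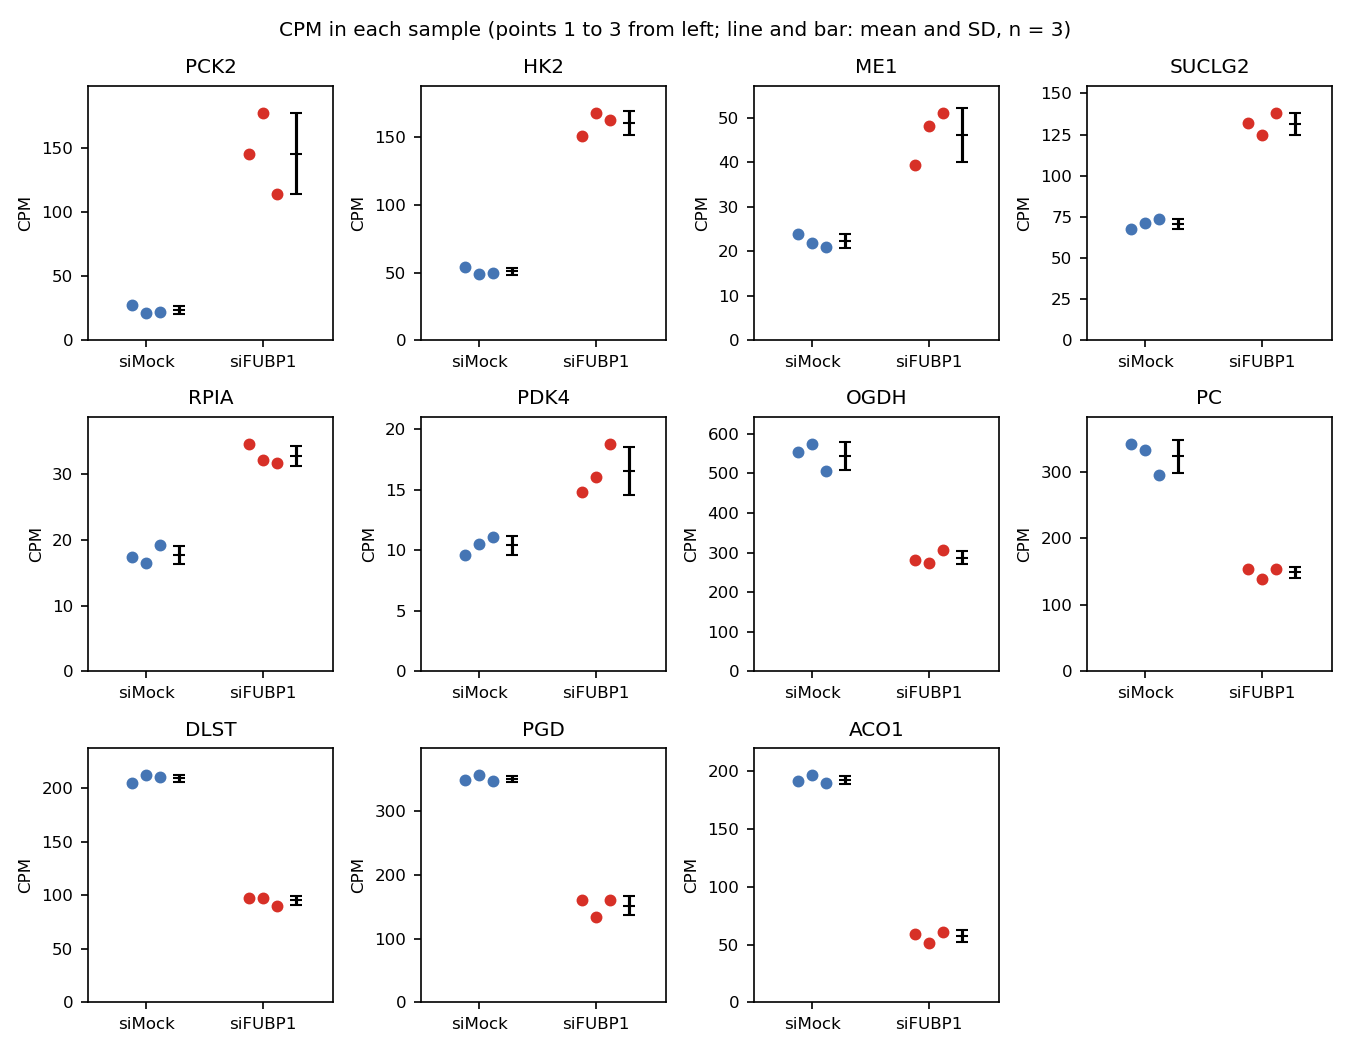
CPM in each sample (vertical axis, from 0) of the 11 genes past the test that rose or fell by more than 1.5 times, 1 panel per gene, with the mean and SD of 3 samples beside the points. In every panel the 3 siFUBP1 points lie on one side of the 3 siMock points, and PCK2 has the widest spread in siFUBP1, from 114 to 177 CPM.

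The promoter windows of a few of these genes are shown because genes that moved in opposite directions held the same motif letters. RefSeq gives a start for 51 of the 53 genes, all but OGDH and SLC2A3, and the 250 bases before each start were searched on both strands for CACGTG (the E-box of basic helix-loop-helix factors), TGACNNNGC (the core of the antioxidant response element) and TGATGNAA (the element bound by ATF4). These letters do not overlap in the windows shown. The motifs were chosen after the values were seen. The stretches below lie outside all annotated exons, are written 5′ to 3′ on the strand of the gene, and carry the motif in capitals.
HK2 (chr2:74834920-74835169, plus strand): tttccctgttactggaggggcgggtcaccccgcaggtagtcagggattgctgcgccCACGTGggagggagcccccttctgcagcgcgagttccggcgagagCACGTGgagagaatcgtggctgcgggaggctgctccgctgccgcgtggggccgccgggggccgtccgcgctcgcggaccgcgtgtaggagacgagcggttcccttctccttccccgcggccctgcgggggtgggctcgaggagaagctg
LDHA (chr11:18394313-18394387, plus strand): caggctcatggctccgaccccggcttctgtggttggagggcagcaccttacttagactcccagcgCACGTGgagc
ME1 (chr6:83431072-83431301, minus strand): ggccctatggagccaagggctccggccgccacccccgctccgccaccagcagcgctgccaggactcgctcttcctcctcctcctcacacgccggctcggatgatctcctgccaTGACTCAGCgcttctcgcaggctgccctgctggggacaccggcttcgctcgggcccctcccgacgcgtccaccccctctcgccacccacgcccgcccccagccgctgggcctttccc
PGD (chr1:10398814-10399043, plus strand): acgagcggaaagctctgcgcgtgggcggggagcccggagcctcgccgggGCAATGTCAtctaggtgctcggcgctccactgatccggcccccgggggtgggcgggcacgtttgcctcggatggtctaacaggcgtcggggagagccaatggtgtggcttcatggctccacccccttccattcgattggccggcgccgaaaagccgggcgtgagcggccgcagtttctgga
All coordinates are on GRCh38.p14. The windows of HK2 and PGD lie inside the annotated span of the gene, before a start that is not its outermost, and HK2 and LDHA each have a further window that holds none of the 3 motifs. Another CACGTG of the LDHA window lies in its exonic part and is not shown. CACGTG was in the window of HK2, which rose, and in that of LDHA, which fell. TGACNNNGC was in that of ME1, which rose, and in that of PGD, which fell, where it reads on the opposite strand as GCAATGTCA. Over all windows of the 53 genes, CACGTG was in 8 of 80 (10%) against 6.31% of 34788 windows of all genes, TGACNNNGC in 9 of 80 (11.2%) against 10.9%, and TGATGNAA in 2 of 80 (2.5%) against 3.16%. The 2 windows with TGATGNAA overlap, belong to HK1 and hold the same match, so by gene it was in 1 of 51 (1.96%). PCK2, with the largest rise, had none of the 3 in its window. These are matches of letters in short windows and say nothing about which factors bind there.

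Where a step has more than one isozyme, the balance within the pair was compared as the ratio of counts per kilobase of gene length in each sample. For 12 pairs the exact two-sided permutation test over samples was used, in which 3 samples against 3 cannot give a p below 0.1. In 10 of the 12 pairs the groups did not overlap (exact permutation p = 0.1, adjusted p = 0.12 over the 12 pairs), so none passed 0.05. Of all tested genes taken singly, 63.9% had groups that did not overlap, and the share among ratios of other gene pairs was not computed. HK2 over HK1 was 0.320, 0.270 and 0.316 in siMock and 0.703, 0.786 and 0.793 in siFUBP1, so that HK2 stayed below HK1 per length but came closer to it, with HKDC1 above both in either group. LDHA over LDHB was 40.3, 40.3 and 42.8 in siMock and 21.9, 18.9 and 25.97 in siFUBP1, with the uncertainty in LDHB named above. LDHA had far more counts per kilobase than LDHB in every sample. As LDHB may be undercounted, the true size of this ratio is not known. ME2 over ME1 went from 0.379 ± 0.0409 to 0.148 ± 0.0379 (SD, n = 3) and SUCLG2 over SUCLA2 from 2.76 ± 0.30 to 5.18 ± 0.10 (SD, n = 3). PFKM over PFKL went from 1.68 ± 0.22 to 3.02 ± 0.14 and PFKP over PFKL from 4.23 ± 0.33 to 5.71 ± 0.25 (SD, n = 3), and both share PFKL, whose direction depends on the GC correction. ALDOC over ALDOA was 2.31, 2.25 and 3.42 in siMock and 4.70, 4.61 and 4.90 in siFUBP1. ALDOC, the brain-type aldolase, had 70.8, 54.1 and 70.8 CPM in siMock and 103, 74.3 and 107 CPM in siFUBP1, a log2 fold change of 0.54 (adjusted p = 0.0066 by edgeR). ALDOA had 40.9, 32.2 and 27.7 CPM in siMock and 29.2, 21.6 and 29.1 CPM in siFUBP1, and is the uncertain member of this pair. PFKFB4 over PFKFB3 went from 1.46 ± 0.20 to 0.962 ± 0.198, ENO2 over ENO1 from 0.0517 ± 0.00214 to 0.0386 ± 0.00256 and SLC2A3 over SLC2A1 from 0.180 ± 0.0255 to 0.132 ± 0.00684 (SD, n = 3). The groups overlap for IDH2 over IDH1 (0.256 ± 0.0610 and 0.301 ± 0.00328, SD, n = 3, exact permutation p = 0.4) and for MDH2 over MDH1 (1.40 ± 0.18 and 1.61 ± 0.17, SD, n = 3, exact permutation p = 0.2).

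**Figure D4:**
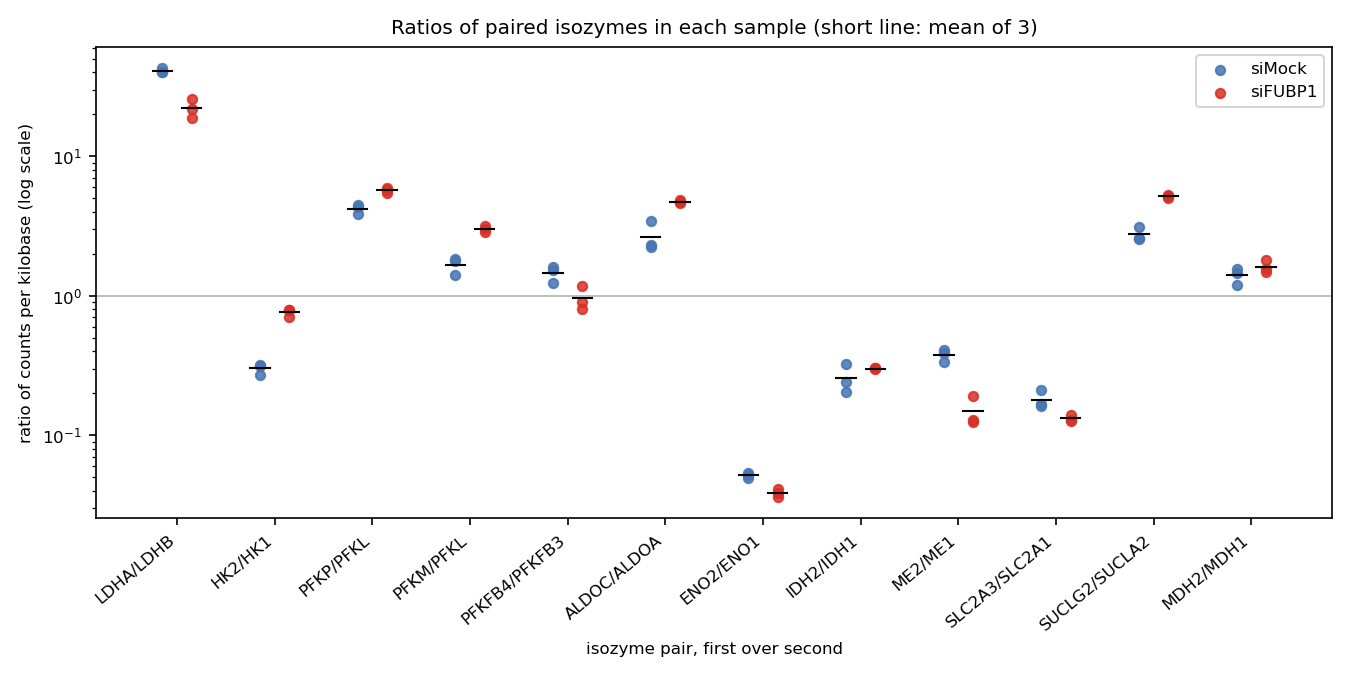
Ratio of counts per kilobase within each of the 12 isozyme pairs (log scale), with 1 point per sample and a short line for the mean of 3. The siMock and siFUBP1 points are apart in 10 pairs and overlap for IDH2/IDH1 and MDH2/MDH1, where 63.9% of all single genes had groups apart. The lowest LDHA/LDHB ratio of any sample is 18.9, though reads of LDHB, and of ALDOA in its pair, could have been left uncounted.

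Summed within each pathway, the genes of glycolysis took 16703 ± 776 CPM (SD, n = 3) in siMock and 16213 ± 1342 CPM in siFUBP1, at a ratio of 0.971, and the groups overlap. The sum at pyruvate entry went from 883 ± 16.8 to 686 ± 30.1 CPM, at a ratio of 0.777. That of the TCA group went from 2797 ± 18.9 to 2444 ± 68.5 CPM, at a ratio of 0.874, and that of the pentose phosphate genes from 1881 ± 96.7 to 1494 ± 35.0 CPM, at a ratio of 0.794. For each of these 3 sums all siFUBP1 samples were below all siMock samples. Of all tested genes taken singly, 63.9% had groups that did not overlap, in either direction. The sums weigh each gene by its counts, so PC, OGDH, PGD and TKT carry much of them. They are not corrected for GC content and exon length, and with that correction TKT was at -0.02 on the log2 scale.

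The pathways hold further genes, of which 53 were listed. A total of 43 passed the filter on low counts, with 14 higher, 20 lower and 9 that did not pass. In the pentose phosphate pathway 7 of the 8 tested were lower and 1 higher, in the TCA group 7 of 16 lower and 4 higher, in glycolysis 6 of 11 lower and 5 higher, and at pyruvate entry 4 of 8 higher, with the other 4 short of the threshold. The background again is 30.1% in each direction. Past 1 on the log2 scale were SDHC, LDHD, PDP1 and SDHD. SDHC and SDHD, the membrane anchors of succinate dehydrogenase, fell. SDHC had 129, 130.1 and 145 CPM in siMock and 44.2, 38.3 and 44.8 CPM in siFUBP1, a log2 fold change of -1.67 (adjusted p = 8.05e-15 by edgeR). SDHD had 63.3, 61.0 and 68.9 CPM in siMock and 27.8, 23.9 and 26.5 CPM in siFUBP1, a log2 fold change of -1.31 (adjusted p = 4.19e-12 by edgeR). SDHD shares 47.7% of its coding bases with the same-strand gene AP002884.3, so reads there could have been left uncounted and its level is uncertain. The other succinate dehydrogenase subunits, named after their values were seen, were SDHB at 0.50 (adjusted p = 3.08e-06 by edgeR) and SDHA at -0.02 (adjusted p = 0.807 by edgeR). PDP1, the phosphatase that switches pyruvate dehydrogenase back on, had 19.2, 20.1 and 19.1 CPM in siMock and 51.3, 59.4 and 47.4 CPM in siFUBP1, a rise of 1.44 on the log2 scale (adjusted p = 2.91e-12 by edgeR). So PDP1 and the kinase PDK4 were both higher. LDHD, a mitochondrial D-lactate dehydrogenase, went from 2.79 ± 0.72 CPM in siMock to 8.71 ± 0.25 CPM in siFUBP1 (SD, n = 3), higher by 1.64 on the log2 scale (adjusted p = 4.28e-08 by edgeR). Of 15 listed regulators of these pathways, such as the subunits of hypoxia-inducible factor, 5 were higher, 3 lower and 7 did not pass, and the largest change was that of TXNIP, which limits glucose uptake, at 0.88 (adjusted p = 2.67e-09 by edgeR).

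**Figure D5:**
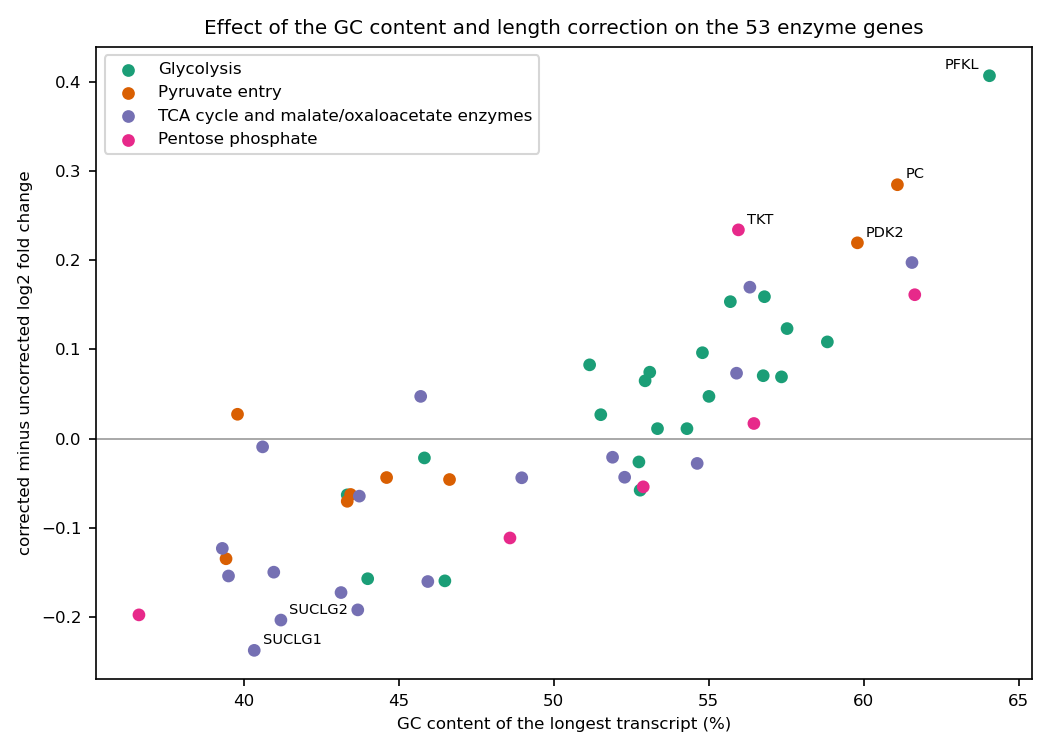
Change of the log2 fold change when each sample's trend on GC content and exon length was removed (vertical axis, corrected minus uncorrected) against the GC content of the longest transcript in percent, for the 53 genes coloured by pathway. The change lies mostly below 0 for genes poor in GC, such as SUCLG1, and mostly above 0 for genes rich in GC, such as PFKL (64.1%) and PC (61.1%), with exceptions on both sides.

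The correction for GC content and exon length moved the log2 fold changes of the 53 genes by -0.24 to 0.41. Of the 24 genes with a GC content below 50%, 22 moved down, all but PDK1 and ACO1, and of the other 29 genes 23 moved up. GC content and exon length, both of the longest transcript, were corrected for together, so the part of each was not tested. It took the calls of PFKL, TKT, SUCLG1, PDK2, TPI1 and ALDOA away and left the directions of the 11 genes beyond 1.5 times as they were, with PCK2 at 2.81, SUCLG2 at 0.69 and PGD at -1.26. Over all 17 alternatives, 25 of the 34 genes that passed kept their direction and their side of the threshold.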

How the data were processed

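RNA of 3 siMock and 3 siFUBP1 samples was sequenced by the authors, with poly-A selection, 48 h after transfection, and samples were grouped by their titles. The authors deposited 1 table with raw read counts per gene, without normalization. The deposited FPKM values are normalized by gene length and by a library size that the authors scaled. The gene length, used for the isozyme ratios too, is the union of all annotated exons of the gene. The table also holds the authors' group means (a normalized signal), and the log2 fold changes and p-values of the authors' own comparison, none of which was used. The submitters' processing notes name HISAT2 2.0.5, StringTie 1.3.3b, featureCounts 1.5.0-p3 and DESeq2 1.16.1. Whether the counting used the strand is not given in the sources used here. Gene identifiers and coordinates match GENCODE release 29 on GRCh38.

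The 2 groups' counts were fitted in R 4.3.3 by edgeR 4.0.16 (TMM factors, its expression filter with the group, the robust quasi-likelihood fit and F test, Benjamini-Hochberg adjustment over 16116 genes), which was tested on simulated data. Genes passed at an adjusted p below 0.05. Total counts were 16309900 to 17484313 per sample, and intervals and limits from counts cover counting error only. Every pair of samples differed by more than sampling noise. The study's methods say in general that experiments were repeated, without saying whether the sequenced samples of a group came from separate cultures, so the p-values measure the spread between these samples, which may be technical. The 53 genes, the list of 53 further genes and the 15 regulators were chosen with earlier results of these data known. Per-sample values were given for FUBP1, PC, PCK2, the PDK genes, isozymes of a pair discussed, genes beyond 1.5 times and the most abundant gene of each pathway, and of the other lists genes beyond 1 were named. Alternatives were other scalings (RLE, upper quartile, library totals), other filters, DESeq2 1.42.0, limma 3.58.1 on log2(FPKM + 1) and log2(FPKM + 0.1), no robust estimation, the replicate number as a block, an offset for GC content and exon length (loess, span 0.3, fitted on genes whose mean count reached 50), and each sample left out. In the offset, GC content and exon length are those of the longest transcript of a gene, not of the union of its exons. Promoter sequences are from RefSeq (GRCh38.p14). The text gives no result of ChIP-seq, PCR or animal experiments, which were not analysed here.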

Additional observations from a re-analysis of the deposited data

How the results depend on the processing

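Of 17 alternatives for each of the 53 genes, 25 of the 34 genes that passed kept their direction and side of the threshold in all of them, and 9 did not (ALDOA, TPI1, PDK2, IDH2, SUCLG1, ME2, MDH1, TKT and PFKL). PC passed under all 17, from -1.18 to -0.83. With a change beyond 1.5 times required, which leaves fewer genes by construction, 6 of the 53 were higher and 5 lower: in glycolysis 1 and 0, in the TCA group 3 and 3, in the pentose phosphate pathway 1 and 1, and at pyruvate entry 1 and 1. Of all genes tested, 17.3% were higher and 17.7% lower at that cut. With the GC and exon length offset 3 glycolysis genes and 10 TCA genes were lower, and with library totals only 2 genes at pyruvate entry were higher. Across all 17 alternatives, 4433 to 5698 of all genes were higher and 4121 to 5001 lower. With each sample left out, 14 to 16 of the 53 were higher and 14 to 18 lower, and 3 to 5 TCA genes were higher (3 without siFUBP1 sample 1). Median log2 fold changes, which carry no test, moved with library totals only to 0.07 (all 53), 0.14 (glycolysis), -0.11 (pyruvate entry), 0.0772 (TCA) and 0.14 (pentose phosphate). That scaling moves the median of all genes by 0.0969. They moved with the GC offset to -0.0790 (pyruvate entry), -0.16 (TCA) and 0.12 (pentose phosphate), and with upper quartile factors to 0.0228 (TCA) and 0.0836 (pentose phosphate). With each sample left out they ran from -0.10 to 0.0233 (all 53), -0.0571 to 0.0356 (TCA) and -0.0249 to 0.10 (pentose phosphate).

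Of the genes whose sign changed, PFKL had passed, at -0.32, and the others had not. GPI was at 0.0298 with library totals only, 0.00792 with the GC offset and, among leave-one-out values from -0.11 to 0.00595, above 0 without siFUBP1 sample 2. PFKFB4 was at 0.0266 and 0.0894 with the same settings and ran from -0.12 to 0.00815 with samples left out. PDHB was at 0.0229 with upper quartile factors, 0.0761 with library totals and from -0.0629 to 0.0306 with samples left out. PDK1 ran from -0.22 to 0.0700 with samples left out. IDH1 was at 0.0300 with upper quartile factors, 0.0845 with library totals, 0.00280 with no filter and, with samples left out, from -0.0721 to 0.0321 (0.00956 without siFUBP1 sample 3). SUCLA2 was at 0.0156 and 0.0699 with upper quartile factors and library totals and from -0.11 to 0.0391 with samples left out (0.0200 without siFUBP1 sample 2). With the GC offset PFKL was at 0.0828, IDH3A at -0.00986 and FH at -0.13. The cause of these changes was not tested.

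Samples with the same number in both groups deviated from their group means with correlations of 0.0282, 0.0478 and 0.238 across genes, so the replicate numbers were not taken to pair the samples, and siMock sample 1 correlated best with siFUBP1 sample 2, at 0.146. With the replicate number as a block 16 of the 53 genes were higher and 18 lower, the counts without it, and over all genes 5013 were higher and 5001 lower against 4844 and 4851. The depth of 16309900 to 17484313 counts left all 53 genes well above the limit a count of 0 allows.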
